A study of Homo sapiens with 4 samples.

Results

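The transcripts described here are those of 10 genes of the splicing regulator family: 8 SR protein genes (SRSF1, SRSF2, SRSF3, SRSF4, SRSF5, SRSF6, SRSF7 and SRSF11) and the paralogues TRA2A and TRA2B. They were taken as a list of gene names from the 62700 annotated genes, and crosslinking events on the strand of each gene were counted by transcript region and library. The study asked which RNAs poly(PR), a dipeptide repeat protein made from the expanded repeat of C9orf72 in amyotrophic lateral sclerosis and frontotemporal dementia, touches in cells. All 4 libraries are of the same condition: HEK293T cells, a transformed human embryonic kidney line, were transiently transfected with PR100-FLAG, a chain of 100 PR repeats with a triple FLAG tag, which was expressed from a plasmid for 24 h under 150 ng/ml doxycycline. Cells received UV light at 160 mJ/cm2, and RNA joined to the dipeptide was recovered with an anti-FLAG antibody and read by iiCLIP, in which the nucleotide before the start of each cDNA marks the crosslinked position. SDS-PAGE served to purify the complexes in replicates 1, 2 and 3, and beads did so in replicate 4. The random barcode had 7 nt in replicates 1, 2 and 4 and 5 nt in replicate 3. The model is an overexpressed construct in a dividing kidney line, and control libraries were not analysed here.

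SR proteins carry RNA recognition motifs at the amino terminus and a tail rich in arginine and serine, the RS domain. They sit on exonic splicing enhancers, many of them rich in purines, and help to define exons and choose splice sites. Kinases of the SRPK and CLK families phosphorylate the RS domain, and the importin TNPO3 carries the proteins into the nucleus. Most of the genes are regulated by their own product through a poison exon or a retained intron, whose inclusion brings in a premature stop codon and sends the transcript to nonsense-mediated decay. TRA2A and TRA2B, related to the fly Transformer-2 protein, hold 1 RNA recognition motif between RS-rich stretches and bind GAA-rich enhancers.

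The libraries held 334057, 604816, 125694 and 179636 events in replicates 1 to 4, or 1244203 in all. Replicate 3 had the fewest positions, 58219, for its number of events. CPM is the count per 1000000 events of the library. Each event is a collapsed cDNA, and intervals on shares of events cover counting error only. Total RNA was not measured in these libraries, so a transcript with more copies and a transcript touched more often per copy cannot be told apart. The labels do not say whether the replicates came from separate cultures, and p-values then measure only the spread between these libraries. Tests were exact two-sided permutation tests that flip the sign of each library, and with 4 libraries their p cannot fall under 0.125.

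The sequences around the peaks of the largest clusters are examples of where PR100 crosslinked on these RNAs. For 8 of the 9 genes with a significant cluster, the line below gives 30 nt of GRCh38 on the strand of the gene, 5′ to 3′, around the peak of its largest cluster: 5 nt before the most crosslinked position, that position itself and the 24 nt after it. Capitals mark GANGA motifs, in which N is A, C or G, a set that the study examined around PR100 sites. They were searched on the strand of the transcript only, and overlapping motifs run together.
SRSF1, coding exon 1, chr17:58007044-58007073, minus strand: acttacctccagacatccgaaccaaggaca
SRSF2, coding exon 2, chr17:76736223-76736252, minus strand: ctcccccagtgtccaagagggaatccaaat
SRSF3, 3′ UTR, chr6:36602252-36602281, plus strand: ttagttatgcacagactgataataaacctc
SRSF5, coding exon 2, chr14:69768183-69768212, plus strand: gagactaaatccagcggccagggagaagga
SRSF7, coding exon 5, chr2:38748106-38748135, minus strand: cgatcaagatctatctctcttcgtagatca
SRSF11, coding exon 8, chr1:70244767-70244796, plus strand: ctcattccagagaaagaggtagaaggtcaa
TRA2A, poison exon, chr7:23522301-23522330, minus strand: attgaatgggggaaaaaattgaacaGAAGA
TRA2B, coding exon 3, chr3:185925450-185925479, minus strand: tcatgttgggaatcgggtaagatgaaaaac

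These windows differ in composition. Of the 8, that of TRA2A alone holds a whole GANGA motif. Its peak position held 7 events, all from replicate 3, and that of SRSF2 held 6, also all from replicate 3. Other peaks were low, with 3 events each in SRSF1 and SRSF3 and 2 in SRSF5. A further 4 windows, chosen after their values were seen, show purine-rich stretches in SRSF11 and the other poison exons with a cluster.
SRSF11, coding exon 11, chr1:70250364-70250393, plus strand: gacataaaaaggaGAAGAAGAaagataaag
SRSF11, coding exon 12, chr1:70250618-70250647, plus strand: gggattatgatGAAGAGGAacaggggtatg
SRSF3, poison exon, chr6:36600136-36600165, plus strand: gcaggaaaaatccacaacacccccttcgcc
TRA2B, poison exon, chr3:185931782-185931811, minus strand: aagttttataaatgagtatttgaagctcag

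All 10 transcripts held at least 1 event in every library, and the share of all protein-coding genes that did so was not counted. The smallest value was 1 event, for SRSF3 in replicate 3, and without control libraries so low a count cannot be told from background. In the sum of the libraries the 10 genes held 1673 events, with 453, 755, 146 and 319 in replicates 1 to 4. This came to 1356, 1248, 1162 and 1776 CPM, a mean of 1385 ± 272 CPM (SD, n = 4). Replicate 4, purified with beads, was the highest. Each of the 10 genes lay above 23, the median of pooled events over the 16867 protein-coding genes with at least 1 event, and 5 lay above the 90th percentile of 126.

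SRSF11, also known as p54, an SR-related factor found at sites of pre-mRNA splicing, carried the most events. It had 119, 230, 22 and 139 events in replicates 1 to 4, or 356, 380, 175 and 774 CPM, with a mean of 421 ± 252 CPM (SD, n = 4). The bead-purified replicate 4 was above and replicate 3 below the other libraries. SRSF11 (chr1:70205682-70253052, plus strand, GRCh38) ranked 56 among protein-coding genes by pooled events and held 30.5% of the events of the 10 genes.

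SRSF1, the founding SR protein, came next with 65, 105, 31 and 44 events, or 215 ± 36.6 CPM (SD, n = 4). Its spread over libraries was small beside its mean. SRSF1 (chr17:58000919-58007346, minus strand) overlaps an annotated readthrough gene, ENSG00000266086, in which all of its events lie, and they were counted for both. SRSF1 and SRSF11 were the only 2 of the 10 genes with at least 200 pooled events, the minimum that the study used, and the background was 4.15% of protein-coding genes. The study also set a limit on binding in control conditions, which was not applied here, so this is not its full criterion. SRSF1 no longer reached 200 events without replicate 1, at 180 events, or without replicate 2, at 140.

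The paralogues TRA2A and TRA2B had similar totals. TRA2A (chr7:23504780-23532041, minus strand) held 73, 62, 15 and 17 events, or 134 ± 57.4 CPM (SD, n = 4), and was highest in replicate 1. TRA2B (chr3:185914558-185938103, minus strand) held 34, 50, 12 and 22 events, or 101 ± 16.6 CPM. Their ranges overlapped, from 94.6 to 219 CPM for TRA2A and from 82.7 to 122 CPM for TRA2B.

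Among the other SR protein genes, SRSF7, which carries a zinc knuckle beside its RNA recognition motif, had 149 ± 67.5 CPM and SRSF4 113 ± 10.6 CPM (SD, n = 4). SRSF2 (SC35), a marker protein of nuclear speckles, had 85.1 ± 45.4 CPM. SRSF5 had 68.6 ± 37.8 CPM, SRSF3, which also takes part in mRNA export, 59.9 ± 35.0 CPM, and SRSF6 38.3 ± 24.1 CPM. SRSF3, SRSF5 and SRSF6 fell to 1 or 2 events each in replicate 3. All but 3 of the 51 events of SRSF6 also lie in an annotated readthrough gene, ENSG00000288000, and without them SRSF6 had 2.22 CPM. The order from SRSF2 to SRSF6 does not separate beyond these SDs.

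Summed over the 10 genes, coding exons held the largest part of this crosslinking. Of the events of the 10 genes, 769 lay in coding exons of the canonical transcripts, a share of 34.0%, 46.6%, 48.6% and 60.2% in replicates 1 to 4 (mean 47.4% ± 10.7, SD, n = 4). The 95% Wilson intervals of the lowest and the highest, 29.8% to 38.5% and 54.7% to 65.4%, do not overlap. In all other protein-coding genes the share was 28.2% ± 9.62. The share of the 10 genes was higher in 4 of 4 libraries, by 19.2 ± 4.60 percentage points (exact sign-flip permutation test, two-sided, p = 0.125, 0.188 adjusted over 6 comparisons with other genes). By gene, SRSF11 gave 293 of the 769 coding events. Introns held more events than coding exons in TRA2A, with 76 against 29, and in SRSF4, with 72 against 45.

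Coding exons also led per length, a scale that allows for the unequal size of the regions, while introns came last. Coding exons held 84.2 pooled events per kb, 5′ UTRs 36.1, poison exons 27.3, 3′ UTRs 13.3, retained introns 5.20 and other introns 3.07. The log2 ratio of coding to intronic density was 3.75, 5.04, 4.97 and 5.69 in replicates 1 to 4, a mean of 4.86 ± 0.81 (SD, n = 4; exact sign-flip permutation test, two-sided, p = 0.125, 0.167 adjusted over 4 tests). In other protein-coding genes, where coding exons held 6.81 and introns 0.38 events per kb, it was 4.16 ± 0.82. The difference of 0.71 ± 0.36 had the same sign in 4 of 4 libraries (exact permutation p = 0.125, adjusted 0.188). Without SRSF11 it was 0.42 ± 0.46 and positive in 3 of 4.

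**Figure D1:**
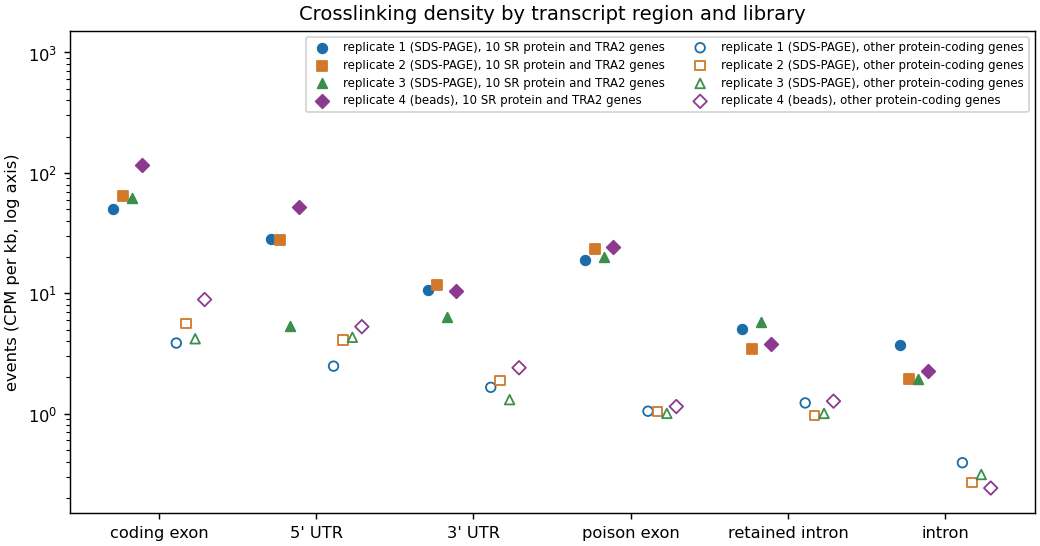
Crosslinking events in CPM per kb (log axis) by transcript region. Filled symbols are the 10 SR protein and TRA2 genes, open symbols all other protein-coding genes, and each symbol is 1 library. In every library the filled symbols lie above the open ones in every region shown, and replicate 4 is the highest in coding exons.

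Between genes, coding exon density spanned more than an order of magnitude. SRSF11 had 103, 143, 49.2 and 413 CPM per kb of coding exon in replicates 1 to 4 and a mean of 177 ± 162 (SD, n = 4). SRSF7 had 134, 115, 277 and 69.9 CPM per kb, with a mean of 149 ± 89.7. SRSF1 had 136 ± 56.5. The libraries ranked SRSF11 and SRSF7 in opposite ways, with replicate 4 highest for SRSF11 and lowest for SRSF7, and these 3 genes do not differ beyond their spread.

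SRSF2 had 79.4 ± 52.6 CPM per kb of coding exon, SRSF5 47.2 ± 34.9, TRA2B 43.4 ± 14.01 and SRSF3 30.8 ± 17.5 (SD, n = 4). TRA2A had 21.5 ± 17.8, SRSF4 18.7 ± 17.5 and SRSF6 11.99 ± 14.6. Replicate 3 held no coding event of SRSF4, SRSF5, SRSF6 or TRA2A. On the scale of pooled events per kb, each of the 10 genes exceeded 2.94, the median over 16867 protein-coding genes, 9 exceeded the 90th percentile of 18.6, and 5 (SRSF1, SRSF2, SRSF5, SRSF7 and SRSF11) exceeded the 99th percentile of 66.8. SRSF6, at 14.5, was the exception at the 90th percentile.

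**Figure D2:**
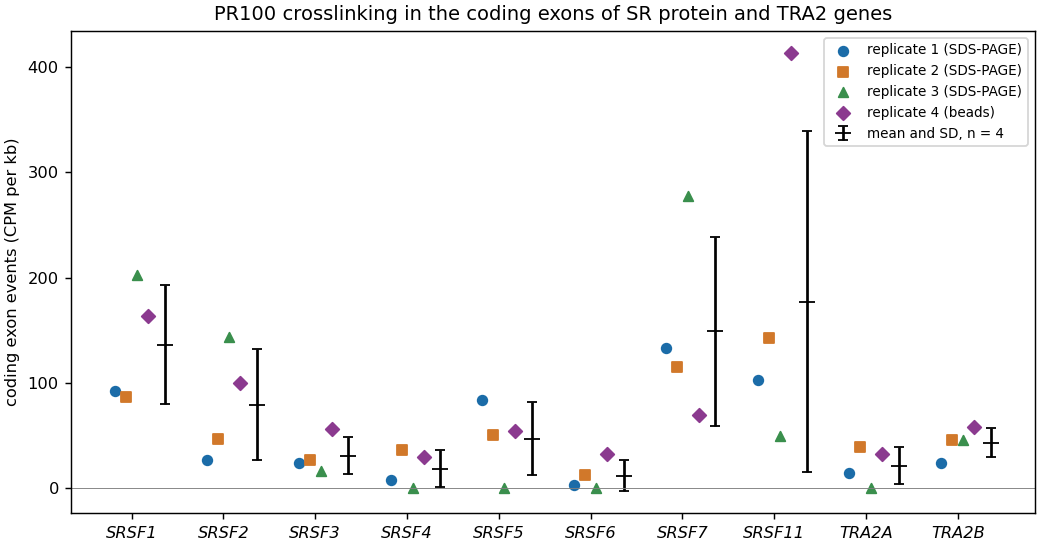
Coding exon events in CPM per kb for each of the 10 genes. Symbols are the 4 libraries and black bars the mean and SD (n = 4). SRSF11 spans 49.2 to 413 and SRSF7 69.9 to 277, while SRSF4, SRSF5, SRSF6 and TRA2A reach 0 in replicate 3.

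Events were uneven along these coding sequences. In SRSF11 the later exons were the densest: exon 9 held 456 pooled events per kb, exon 11 held 446 and exon 8 held 348, against 72.7 to 80.0 in exons 2 to 5. Exon 11 had 8, 24, 0 and 30 events in replicates 1 to 4. In SRSF7 exons 5 and 6 held 333 events per kb each, and exon 5 had 10, 16, 9 and 2 events. In SRSF5, exon 2 alone held 20 of the 56 coding events, with 10, 7, 0 and 3 in replicates 1 to 4. In SRSF1, exons 1, 3 and 4 held 170, 156 and 159 coding events per kb and exon 2 held 64.9.

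**Figure D3:**
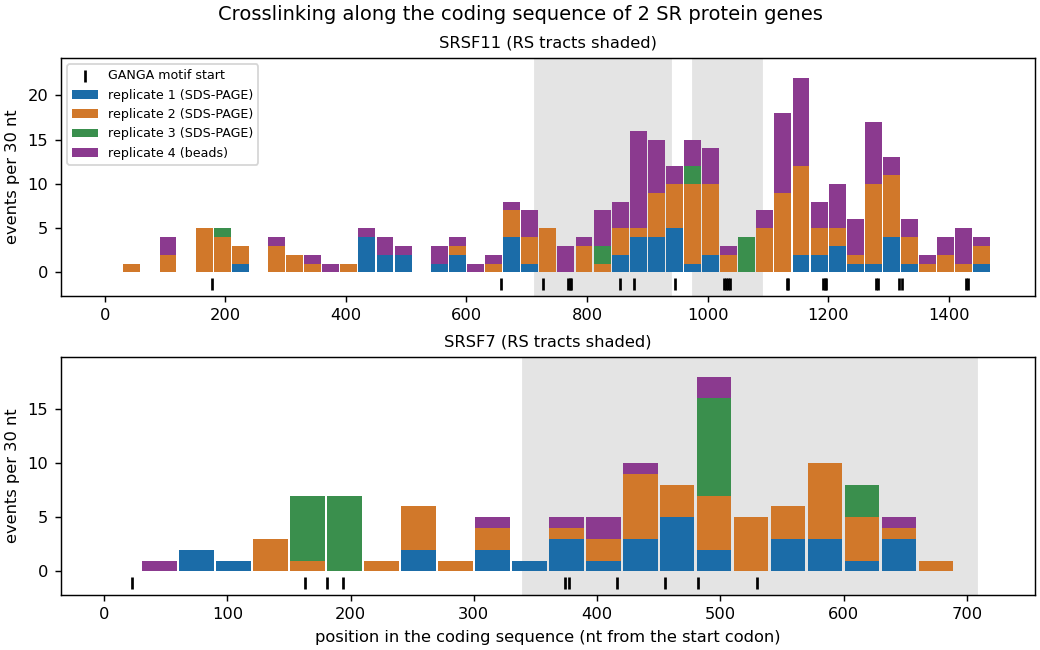
Events per 30 nt along the coding sequences of SRSF11 and SRSF7, stacked by library, against position from the start codon in nt. Grey areas encode RS tracts and black ticks are starts of GANGA motifs, of which SRSF11 has 24 and SRSF7 has 10. Events gather in the later part of both coding sequences.

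UTRs held a smaller part. The 3′ UTRs held 283 events, 15.2% ± 3.86 of the total (SD, n = 4), against 9.17% ± 1.81 in other protein-coding genes. These shares do not allow for length. Per kb, 3′ UTRs of the 10 genes held 13.3 pooled events beside 84.2 in their coding exons. In other protein-coding genes the values were 2.29 and 6.81. In 3 of the 10 genes the 3′ UTR held more events than the coding exons, with 116 against 103 in SRSF1, 34 against 18 in SRSF3 and 22 against 15 in SRSF6. Per length the order was the reverse in SRSF1, whose coding exons held 138 pooled events per kb and its 3′ UTR of 4487 nt held 25.9. The 5′ UTRs held 54 events.

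Poison exons are the elements through which many SR protein genes limit their own expression. Here they were taken from the annotation as internal exons that lie inside a canonical intron and overlap no coding sequence of a protein-coding transcript. They belong to a transcript marked for nonsense-mediated decay, as a retained intron or processed transcript, or without a defined coding sequence. A premature stop codon was not required. By this rule 8 of the 10 genes had 18 poison exons, and SRSF1 and SRSF5 had none. They held 20, 45, 8 and 14 events in replicates 1 to 4, or 5.06% ± 0.79 of the events of the 10 genes (SD, n = 4). In other protein-coding genes the share was 0.227%. These shares do not allow for length. Annotated poison exons spanned 3186 nt beside 94216 nt of other intron in the 10 genes. In other protein-coding genes they spanned 1446158 nt beside 1093635751 nt.

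Density in poison exons exceeded that in other introns of the 10 genes by 3.21 ± 0.58 on the log2 scale (SD, n = 4), with the same sign in 4 of 4 libraries (exact sign-flip permutation test, two-sided, p = 0.125). The same ratio in other protein-coding genes was 1.83 ± 0.36. The difference was 1.38 ± 0.37, positive in 4 of 4 libraries (exact permutation p = 0.125, adjusted 0.188). It was not stable to leaving out TRA2A: without this gene the difference was 0.11 ± 1.54 and positive in 3 of 4. All 8 poison exon events of replicate 3 lay in TRA2A, so that library then had no poison exon event. Retained introns ran the other way. Their log2 ratio to other introns was 0.92 ± 0.49 in the 10 genes and 1.89 ± 0.35 in other genes, lower in the 10 genes in 4 of 4 libraries (exact permutation p = 0.125, adjusted 0.188). Poison exons and retained introns together gave 1.47 ± 0.47 (exact permutation p = 0.125, adjusted 0.167 over 4 tests).

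The poison exon of TRA2A was the densest stretch of its transcript by region. This exon of 312 nt in the first intron (chr7:23522121-23522432) held 9, 12, 8 and 3 events in replicates 1 to 4, and was the only poison exon of the 10 genes with events in all 4. Its 32 events made 103 per kb, against 7.47 in the rest of that intron and 34.2 in the TRA2A coding exons, which held 29 events. Of the 8 events in replicate 3, 7 fell on a single position. Some annotated protein-coding transcripts of TRA2A also include this exon, outside their coding sequence. The cluster in it ends its printed window with GAAGA.

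In TRA2B the matching exon of 276 nt in the first intron (chr3:185931577-185931852) held 2, 6, 0 and 2 events, or 36.2 per kb against 3.17 in the rest of the intron. In SRSF3 the poison exon of 456 nt (chr6:36599821-36600276) held 3, 9, 0 and 2 events, or 30.7 per kb against 5.84. In both, replicate 3 had no event. In SRSF7 the exon of 449 nt (chr2:38748898-38749346) held 4, 5, 0 and 4 events, yet its 29.0 events per kb did not stand above the 30.5 in the rest of its intron. That rest is short, 426 nt, and held 2, 5, 5 and 1 events in replicates 1 to 4, so the comparison leans on replicate 3. These 4 exons held 69 of the 87 poison exon events, and 7 of the 18 poison exons held none. A count of 0 allows up to 3 events in such an exon.

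Significant clusters, too, lay mostly in coding exons. The pooled list of the authors held 29 clusters in 9 of the 10 genes, and the background was 13.4% of protein-coding genes with a cluster. SRSF11 had 9, SRSF1 and SRSF7 had 5 each, SRSF3 and TRA2B 3 each, and SRSF2, SRSF4, SRSF5 and TRA2A 1 each. SRSF6 had none. The clusters held 593 cDNAs, 35.4% of the events of the 10 genes, and from 10 to 50 cDNAs each. Their summits, the positions with the most cDNAs, lay in coding exons for 20, in 3′ UTRs for 3 and in poison exons for 3, those of SRSF3, TRA2A and TRA2B. In other protein-coding genes 10 of 3973 clusters had the summit in a poison exon and 63.4% in a coding exon, against 69.0% here. These counts do not allow for the unequal annotated length of poison exons in the gene sets.

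The largest cluster, in exon 8 of SRSF11, held 10, 14, 2 and 24 cDNAs in replicates 1 to 4, and 8 of the 29 clusters had events in all 4 libraries. Others leaned on 1 library. The cluster of SRSF4 came from replicate 3 alone, with 10 cDNAs, and one in exon 4 of SRSF1 (chr17:58005481-58005484) had 10 of its 11 cDNAs from replicate 3, which has the shorter random barcode. The part of the barcode in these values was not tested. The single cluster of SRSF2, in exon 2, had 5, 9, 16 and 4 cDNAs.

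The coding sequences of these genes were rich in GANGA motifs. They held 101, or 11.1 per kb of coding sequence, against 7.03 per kb in other protein-coding genes. SRSF11 had 16.5 per kb, more than 95.9% of genes, SRSF7 13.9, TRA2B 13.8 and SRSF4 13.5, while SRSF6 had 3.86. SRSF11 and SRSF7 had the most motifs and the most coding events per kb, and SRSF6 the fewest of both. In between the orders differed, since SRSF1, with 8.03 motifs per kb, had more coding events per kb than TRA2B or SRSF4.

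Coding events had a motif near them more often than coding positions of the same genes, in 4 of 4 libraries. A GANGA motif started from 5 nt upstream to 30 nt downstream of 35.1%, 40.6%, 33.8% and 41.7% of coding events in replicates 1 to 4, and of 27.96% of all coding positions of the same genes. The difference was 9.83 ± 3.93 percentage points (SD, n = 4; exact sign-flip permutation test, two-sided, p = 0.125, adjusted 0.167). Other protein-coding genes gave 10.2 ± 1.07 points. The difference between the gene sets was -0.38 ± 3.10 points (exact permutation p = 0.75, adjusted 0.75) and was within the spread between libraries. By gene the values were mixed. In SRSF11 47.1% of pooled coding events and 33.7% of positions were near a motif, and in SRSF7 48.3% and 37.5%. The pooled excess of SRSF11 came from replicates 2 and 4. Its shares of events were 34%, 53.97%, 0% and 49.07% in replicates 1 to 4. The mean difference from positions was 0.51 ± 24.4 points in SRSF11 and 14.9 ± 10.1 points in SRSF7 (SD, n = 4). In TRA2A the shares were 20.7% of 29 events and 33.9% of positions, and in SRSF5 14.3% of 56 events and 19.05%.

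The RS domain itself is encoded by repeats of arginine and serine codons, so its RNA is a distinctive stretch of each coding sequence. RS tracts, defined as residues in any window of 20 with at least 60% arginine or serine, made up 39.2% of the coding sequence of the 10 genes. In pooled events per kb, tracts held 92.7 and the rest of the coding sequence 78.7. On the log2 scale tracts over the rest gave 0.33, 0.32, 1.08 and -0.33 for replicates 1 to 4, with a mean of 0.35 ± 0.57 (SD, n = 4; exact sign-flip permutation test, two-sided, p = 0.375, adjusted 0.375), so no difference beyond the spread was detectable. In 716 other protein-coding genes with such a tract the ratio was 0.91 ± 0.15. The 10 genes were lower by 0.56 ± 0.45, in 3 of 4 libraries (exact permutation p = 0.25, adjusted 0.3).

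The genes differed among themselves in this measure. Pooled tract density was 2.27 times the density of the rest in SRSF7, 2.26 times in SRSF2, 1.94 times in SRSF4 and 1.73 times in SRSF11. It was 0.58 times in SRSF6, 0.65 times in SRSF5 and 0.75 times in TRA2A. Without replicate 2, which gave most of the events of SRSF4, TRA2A and SRSF6 here, the ratio turned to 0.69 in SRSF4, 1.77 in TRA2A and 1.20 in SRSF6. Leaving out 1 library also moved SRSF3 and TRA2B, at 0.93 and 1.03, across 1. SRSF1, SRSF2, SRSF5, SRSF7 and SRSF11 stayed on their side of 1 without any 1 library. For SRSF1, at 1.35, the ratio was 1.007 without replicate 3, whose 10 tract events in this gene lay at a single position. In SRSF7 tracts held 25, 38, 12 and 7 of 32, 50, 25 and 9 coding events in replicates 1 to 4, and replicate 3 was the one in which tract density was not the higher. In SRSF2 the tract held 4, 11, 12 and 5 events and the rest 2, 8, 0 and 7, and without replicate 3 the ratio was 1.41.

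**Figure D4:**
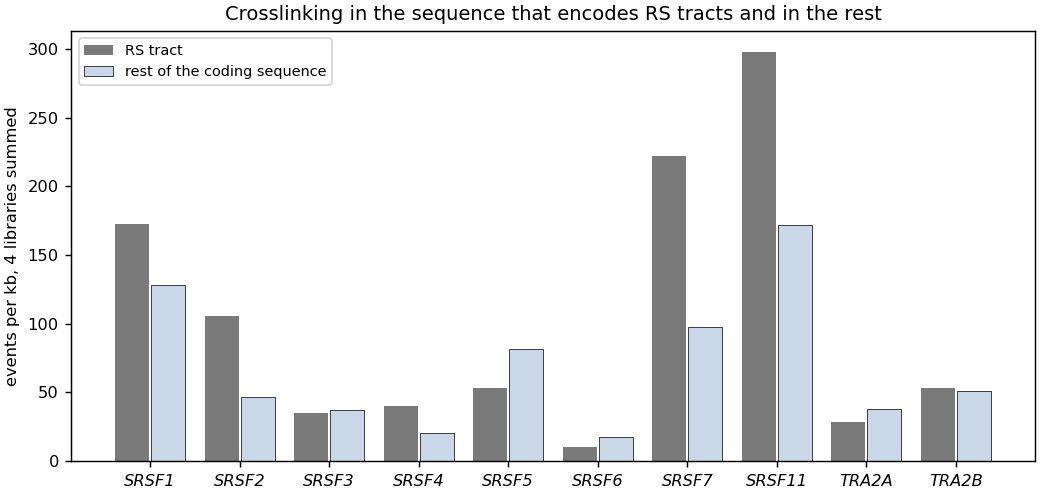
Pooled events per kb in the sequence that encodes RS tracts (grey) and in the rest of the coding sequence (blue) for each of the 10 genes, with the 4 libraries summed. SRSF7 and SRSF11 reach 222 and 298 in the tract against 97.7 and 172 in the rest, while SRSF5 is lower in the tract.

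Other genes of the SR protein system were also crosslinked. Of 13 such genes (SRSF8, SRSF9, SRSF10, SRSF12, SREK1, the SRPK and CLK kinases and TNPO3), 2 had at least 200 pooled events and 4 had a cluster (SRSF10, SREK1, SRPK1 and CLK2), with a median of 68 events and a range of 2 to 260. Over all protein-coding genes with at least 1 event, 4.15% had at least 200 events, 13.4% had a cluster, and the median was 23 events. SRPK1, a kinase of RS domains, had 68, 135, 12 and 45 events, or 193 ± 67.9 CPM (SD, n = 4). SRPK2, its paralogue, had 99, 101, 13 and 23 events, or 174 ± 85.9 CPM.

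Over the 4 libraries, the summed profile of the 10 genes was most like those of SPTBN1, CSNK1E and MCM3 among protein-coding genes with at least 200 events. Their distances from it were 0.13, 0.13 and 0.14 on the centred log2(CPM + 1) scale.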

How the data were processed

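The deposited values were counts: whole numbers of distinct cDNAs at each crosslinked nucleotide of each strand, not normalised. The authors separated the libraries by barcode, removed PCR copies with the random barcode, aligned with STAR to GRCh38 with Gencode 27 and at most 2 mismatches, and kept uniquely mapping reads, so sequence shared with near-identical copies is undercounted. Clusters were called by the authors with iCount at a false discovery rate of 0.05 and carry the sum of counts. The version of STAR and the joining distance are not given in the sources used here. Summed over libraries, the counts equalled the pooled ones at every position.

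Events were placed on GRCh38 with GENCODE 44 and counted for each gene that spans them on its strand, and bases were classed in the order coding exon, 5′ UTR, 3′ UTR of the canonical transcript, poison exon, retained intron, other exon, intron. Ratios of densities used a pseudocount of 0.5 events. Exact two-sided sign-flip permutation tests were run over the 4 libraries. RS tracts came from translation of the canonical coding sequence. Windows were read from the GRCh38 sequence, and some are not reported here.

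No measured value enters the rule for the members, but members and lists were chosen with earlier results of these data known. Named genes were every member, other SR system genes with at least 200 events, and the 3 genes of nearest profile. Counting was tested on simulated data. Python 3.11.15, numpy 2.4.6, scipy 1.17.1, pandas 2.3.3 and matplotlib 3.10.9 were used. The alternatives left out libraries or genes and changed the counting, minimum, annotation, motif and tract rules.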

Additional observations from a re-analysis of the deposited data

Results flagged for a closer look

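SRSF3 in replicate 3 stood apart from the other libraries. It held 7.96 CPM there, from 1 event, and 72.4 to 84.3 CPM in replicates 1, 2 and 4. The gap to the nearest library was 0.843 of the whole range, above Dixon's 95% critical value for 4 samples. Of 16 values tested in this way 1 was flagged, and chance flags about 1 in 20.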

How the results depend on the processing

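No paired analysis was possible because all 4 libraries belong to 1 group. The number of genes with at least 200 events was 2, and without 1 library each it ranged from 1 to 2. It was 1 with each position counted once, 1 with events inside another gene of the strand left out, 6 at a minimum of 100 events and 1 at 400. A cluster was held by 9 genes in the pooled list, by 6 with at least 20 cDNAs, and by 2 in the lists of at least 2 single libraries. The share of all protein-coding genes was 4.15% for 200 pooled events and 13.4% for a pooled cluster. It was not counted at the other settings, so the counts there have no background to be read against.

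Among values summed over the members, no log2 density ratio or motif difference changed its sign under the alternatives. Single genes were less stable. The tract ratios of SRSF3, SRSF4, SRSF6, TRA2A and TRA2B crossed 1 when 1 library was left out. Without 1 library each, the total ranged from 1255 to 1460 CPM, the coding share from 43.1% to 51.8%, and the log2 ratio of coding to intronic density from 4.59 to 5.23. The ratio of poison exons and retained introns to introns ranged from 1.31 to 1.68, the motif difference from 8.54 to 11.2 points and the RS tract ratio from 0.11 to 0.58. The exact p is then at least 0.25. With each position counted once the motif difference was 6.87 points (exact permutation p = 0.25). With tracts of at least 70% arginine or serine the log2 ratio was 0.62 (exact permutation p = 0.125). With events inside another gene left out, SRSF1 had 0 CPM and SRSF6 2.22, since an annotated readthrough gene holds all events of the first and all but 3 of the second. The versions without SRSF11 or TRA2A, the tract ratios by gene without 1 library, with genomic sequence, and the differences from other genes were chosen after seeing the data. Depth limits single genes most in replicate 3, where members had as few as 1 event.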
